A study of Homo sapiens with 9 samples.

Results

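RNA polymerase II (RNAPII) peaks whose summit lay on an exon deep inside a gene were collected from 5 chromatin immunoprecipitation and sequencing (ChIP-seq) peak lists, and numbered 9385 of the 142069 peaks. The summit, the base where the pile of reads was highest, had to lie over 3 kb past the transcription start site (TSS) of the longest protein-coding transcript of a gene 10 to 300 kb long, before that transcript's end, inside 1 of its exons and over 500 bp from any protein-coding TSS. RECQL5 itself was left out. By list there were 400 such peaks among 5287 in cells with a control hairpin, 1480 among 23698 with shRNA5, 1789 among 32124 with shRNA7, 3257 among 47060 without doxycycline and 2459 among 33900 with it. Summits that met the same rule except that they fell in an intron numbered 1113, 8751, 13324, 20964 and 15943, and served as the comparison.

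The cells were HEK293, a human embryonic kidney line. For 3 of the RNAPII libraries the cells carried a lentiviral short hairpin RNA (shRNA), either a control hairpin or 1 of a pair against RECQL5, a DNA helicase that binds RNAPII. For the other 2, HEK293T-rex cells had been transfected with pcDNA4/TO-RECQL5, from which full-length RECQL5 is made when doxycycline is added, and were given 0.0 or 1.0 ng/ml of the drug, so that both carried the plasmid. The labels do not say whether the hairpin or plasmid cells were clones or pools, and the hairpin and plasmid arms, which differ in cell line, were not compared with each other for an effect of RECQL5. Peaks had been called against non-specific IgG, with an IgG library for each hairpin and a single untreated one for both doxycycline lists, per the labels, and whether the plasmid was in the untreated IgG cells is not given in them.

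An exon is the stretch of a gene that stays in the mature RNA, and introns are the stretches that are spliced out while RNAPII is still transcribing. Internal exons are mostly short and coding, whereas the last exon is usually long, holds the 3′ untranslated region (UTR) and ends at the site where the RNA is cleaved and polyadenylated. RNAPII is known to slow near that site before it leaves the template, and slower movement has also been described over exons.

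The internal coding exons with the strongest peaks are shown first, because on them a summit cannot come from the long last exon. They are the 2 with the highest fold enrichment over IgG in each list, 7 exons in all, taken from the GRCh37 genome in the direction of the gene. Capitals mark the exon and lower case the 20 bases of intron on either side.
ATN1 exon 6, chr12:7046988-7047250, plus strand: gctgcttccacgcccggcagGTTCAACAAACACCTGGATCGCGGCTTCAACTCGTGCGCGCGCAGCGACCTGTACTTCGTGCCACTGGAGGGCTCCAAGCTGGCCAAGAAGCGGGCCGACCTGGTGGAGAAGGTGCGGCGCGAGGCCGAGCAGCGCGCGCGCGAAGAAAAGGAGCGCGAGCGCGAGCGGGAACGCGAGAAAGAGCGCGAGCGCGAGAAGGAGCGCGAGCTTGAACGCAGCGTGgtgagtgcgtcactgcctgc
CEP295 exon 27, chr11:93462760-93462967, plus strand: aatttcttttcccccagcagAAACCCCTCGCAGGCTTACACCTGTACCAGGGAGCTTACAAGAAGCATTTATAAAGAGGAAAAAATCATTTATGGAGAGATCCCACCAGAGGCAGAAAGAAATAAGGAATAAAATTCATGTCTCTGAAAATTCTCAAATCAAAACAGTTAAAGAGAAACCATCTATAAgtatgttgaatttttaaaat
TOP2A exon 11, chr17:38564724-38564902, minus strand: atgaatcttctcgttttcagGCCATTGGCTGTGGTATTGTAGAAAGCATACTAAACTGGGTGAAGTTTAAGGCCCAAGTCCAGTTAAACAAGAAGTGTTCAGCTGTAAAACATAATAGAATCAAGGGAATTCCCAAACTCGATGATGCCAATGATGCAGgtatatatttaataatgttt
RNF220 exon 6, chr1:45097995-45098077, plus strand: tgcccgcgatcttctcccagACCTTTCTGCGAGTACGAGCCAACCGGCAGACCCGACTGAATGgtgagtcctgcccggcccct
MAP3K12 exon 8, chr12:53878021-53878169, minus strand: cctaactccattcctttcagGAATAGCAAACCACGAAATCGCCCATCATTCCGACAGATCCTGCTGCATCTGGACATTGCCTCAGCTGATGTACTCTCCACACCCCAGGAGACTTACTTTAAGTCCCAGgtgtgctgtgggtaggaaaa
NFIC exon 6, chr19:3435061-3435225, plus strand: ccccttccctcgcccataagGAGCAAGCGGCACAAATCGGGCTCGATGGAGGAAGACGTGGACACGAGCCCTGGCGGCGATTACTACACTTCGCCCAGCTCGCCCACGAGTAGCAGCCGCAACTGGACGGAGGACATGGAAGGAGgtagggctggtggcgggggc
MEI1 exon 19, chr22:42159158-42159345, plus strand: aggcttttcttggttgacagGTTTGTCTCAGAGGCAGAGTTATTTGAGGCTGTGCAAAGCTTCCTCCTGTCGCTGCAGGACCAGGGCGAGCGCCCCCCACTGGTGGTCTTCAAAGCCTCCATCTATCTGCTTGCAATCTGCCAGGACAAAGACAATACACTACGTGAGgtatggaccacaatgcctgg

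These 7 exons ran from 43 to 223 bp and differed widely in base composition, from 33.2% A and T in ATN1 exon 6 to 63.7% in CEP295 exon 27. Each was preceded by ag and followed by gt, the usual letters at the ends of an intron. The peaks by which they were chosen were wider than the exon in every case, from 1124 bp in MEI1 to 46818 bp in MAP3K12, so that the exon is where the summit fell and not the extent of the signal.

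ATN1, which encodes the transcriptional co-regulator atrophin-1, held a summit in exon 6 in 4 of the 5 lists. The peaks there held 85 tags in the control list, 373 with shRNA5, 149 without doxycycline and 82 with it, at fold enrichments of 17.2, 15.5, 74.4 and 27.6, and no member lay on ATN1 with shRNA7. RNF220, a ubiquitin ligase gene, had its summit in exon 6, only 43 bp long, in the shRNA7 list at a fold enrichment of 30.2 and in the list without doxycycline at 110 (213 tags), the highest of any internal coding exon. Both RNF220 peaks reached into the 500 bp around a protein-coding TSS. NFIC, which encodes a nuclear factor I transcription factor, held summits in exon 6 in 3 lists, at fold enrichments of 53.9 without doxycycline, 31.8 with it and 10.4 with shRNA7. ATN1, RNF220, NFIC and CEP295 exons each lay within 500 bp of a TSS of a transcript not counted as protein-coding.

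TOP2A (topoisomerase II alpha), MEI1 and MAP3K12 had no such start nearby. MEI1, a gene known for meiosis, held summits in exon 19 in both doxycycline-arm lists, with 58 tags without the drug and 63 with it, and had no peak at its own TSS in either. In TOP2A a 9378 bp peak of 704 tags in the shRNA5 list had its summit in exon 11, where the doxycycline list had a 902 bp peak of 37 tags. The MAP3K12 summit belonged to a single 46818 bp peak of 6014 tags in the shRNA7 list that ran through PCBP2 and PRR13 as well, so it cannot be given to MAP3K12 alone. CEP295, a centrosome gene, had a summit in exon 27 in the control list (322 tags), 684 bp before its end and in a peak that ran on into TAF1D, a gene on the other strand.

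Exons held more summits than their length would give. Of all deep peaks, 26.4% lay on an exon in the control list (95% Wilson interval 24.3 to 28.7%), 14.5% with shRNA5 (13.8 to 15.2%), 11.8% with shRNA7 (11.3 to 12.4%), 13.4% without doxycycline (13 to 13.9%) and 13.4% with it (12.9 to 13.9%), whereas exons made up 6.36% of the deep bases (46.8 Mb of exon and 690 Mb of intron over 13815 genes). Per megabase, summits were 5.30 times as dense on exons as in introns in the control list, 2.49 and 1.98 times with shRNA5 and shRNA7, and 2.29 and 2.27 times without and with doxycycline. The lower ratios with the RECQL5 hairpins depended on which peaks were counted: in lists shortened to the length of the control list the ratios were 5.30, 5.36, 6.60, 5.37 and 4.31, and at a fold enrichment of at least 10 they were 6.20, 5.59, 5.52, 2.38 and 2.72. Intervals of this kind cover counting error only. With 1 library in each group there was no replicate check and no test was made between lists.

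The excess was smaller against the bases of the peaks' own genes, and smaller again with the distance to the gene's end held alike. Taken once for each deep peak, the deep bases of its gene were 15.1% exon in the control list, 11% with shRNA5, 9.71% with shRNA7, 11% without doxycycline and 10.4% with it. When each deep peak was set against the bases of its own gene at the same distance from the transcript end, the exon share given by the bases was 27.0%, 15.3%, 12.8%, 13.3% and 13% in the same order. The observed count over that expectation was 0.977 in the control list (0.898 to 1.06), 0.948 with shRNA5 (0.904 to 0.994), 0.926 with shRNA7 (0.887 to 0.967), 1.01 without doxycycline (0.978 to 1.04) and 1.03 with it (0.992 to 1.07). In no list did the excess of summits on exons go beyond the counting interval, and in the lists of both RECQL5 hairpins the count lay slightly below what the bases gave.

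**Figure D1:**
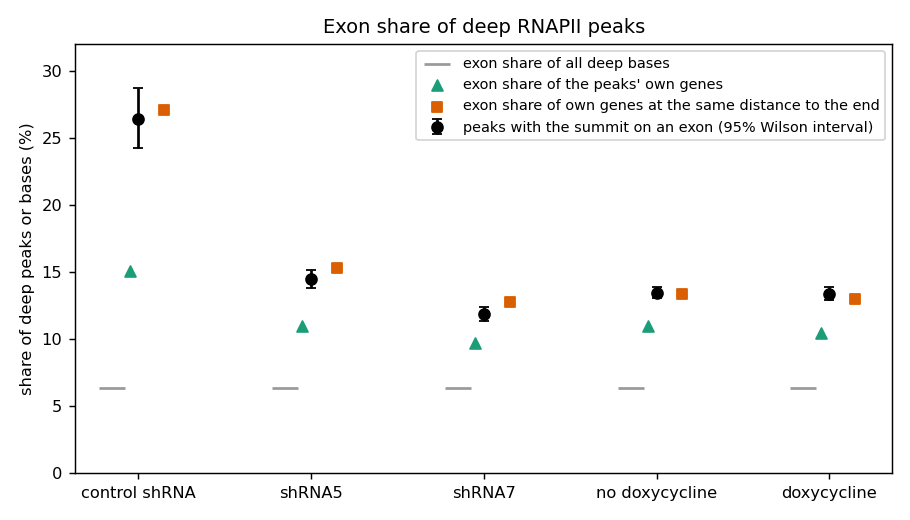
Share of deep RNAPII peaks whose summit lay on an exon in each list (black points, 95% Wilson interval), beside the exon share of all deep bases (grey dashes), of the deep bases of the peaks' own genes (triangles) and of the bases of the same genes at the same distance from the transcript end (squares), all in percent. The black points stand well above the grey dashes at 6.36% in all 5 lists, and close to the squares. Peaks whose gene is all exon or all intron at that distance add equally to points and squares by construction.

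The members were mainly last-exon peaks. The last exon held 345 of 400 summits in the control list (86.3%), 1196 of 1480 with shRNA5 (80.8%), 1443 of 1789 with shRNA7 (80.7%), 2109 of 3257 without doxycycline (64.8%) and 1639 of 2459 with it (66.7%), and last exons supplied 61.2% of the deep exon bases. The untranslated part of the last exon alone held 83.3%, 76.6%, 75.5%, 58.0% and 60.5% of the members in that order, against 53.4% of the bases. Internal exons held 52, 284, 345, 1144 and 814 summits, and the remaining 3, 0, 1, 4 and 6 lay on a first or single exon. The median last-exon summit was 889 bp from the transcript end in the control list, 1222 bp with shRNA5, 1347 bp with shRNA7, 1216 bp without doxycycline and 1204 bp with it.

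The density of summits beyond 50 kb from the transcript end was lower than in the last kilobase in every list, on exons and introns alike, but it did not go down at every step: without doxycycline intron summits numbered 71.4, 86.6 and 72.9 per Mb in the bins up to 1 kb, 2 kb and 5 kb. In the control list there were 17.1 exon summits per Mb in the last kilobase, 5.90 at 5 to 10 kb from the end and 0.590 beyond 50 kb, while intron summits went from 10.1 to 3.78 to 0.471 per Mb. With shRNA7 the exon values were 55.7, 30.2 and 16.5 per Mb and the intron values 39.7, 29.0 and 13.1. The exon density at 10 to 20 kb from the end was 0.581 times the intron density in the control list (0.264 to 1.28), 0.859 times with shRNA5 (0.679 to 1.09) and 0.836 times with shRNA7 (0.683 to 1.02), but 1.47 times without doxycycline (1.31 to 1.66) and 1.51 times with it (1.31 to 1.72). The intervals of the 3 hairpin lists took in 1, and the split between the arms was in that bin: from 20 to 50 kb the ratio was 0.901, 1.19, 1.05, 1.23 and 1.45 in the order of the lists, and beyond 50 kb 1.25, 1.30, 1.26, 1.44 and 1.53. These ratios pool the bases of all genes, with or without peaks. With gene and distance both held alike, over all distances, the doxycycline-arm values were 1.01 and 1.03, as given above.

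**Figure D2:**
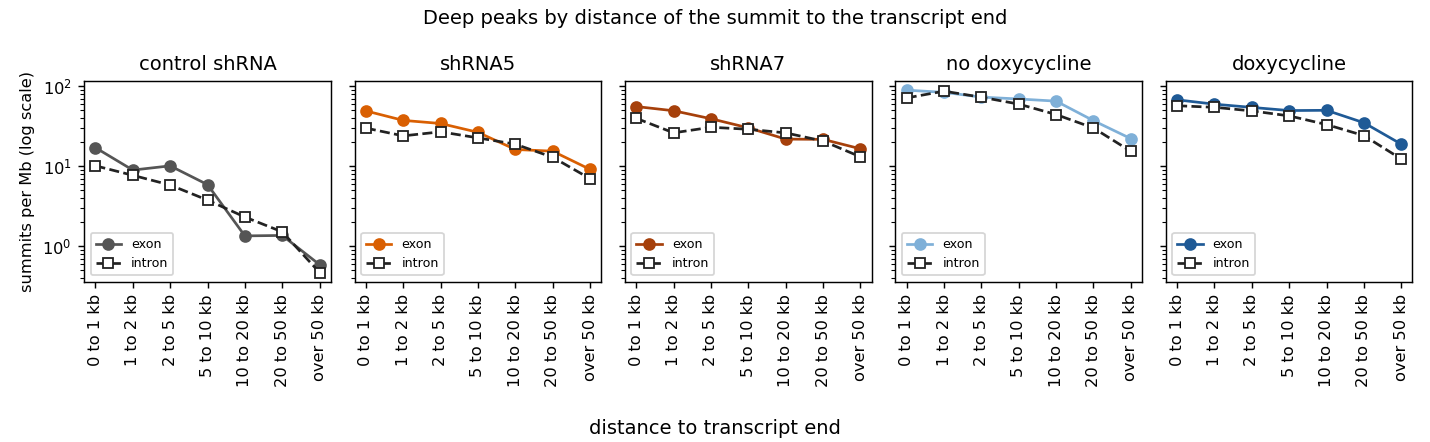
Summits per megabase of exon (filled circles) and of intron (open squares) in bins of distance to the transcript end, on a log scale, with 1 panel for each list. In every panel both lines are lower beyond 50 kb than in the last kilobase, though not step by step, with exon values going from 17.1 to 0.590 exon summits per Mb in the control list and from 89.2 to 22.1 without doxycycline.

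In the hairpin arm, last-exon peaks often ran over the end of the gene. The share of last-exon peaks that passed the gene end was 62.3% in the control list, 51.6% with shRNA5, 53.2% with shRNA7, 19.9% without doxycycline and 24.3% with it. Their median length was 2437 bp, 2187 bp and 2588 bp in the hairpin lists and 605 bp and 692 bp in the doxycycline lists, and the median tags per kilobase of exon peak were 44.7, 44.2, 44.3, 21.5 and 31.5, so the arms also differed in how wide and how deep a called peak was. The part of these differences that comes from calling was not tested. Within the last exon the median summit lay at 0.628, 0.621 and 0.614 of the exon's length in the hairpin lists and at 0.516 and 0.520 in the doxycycline lists, where 1 is the transcript end.

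Internal exons were looked at with the last 5 kb of each transcript set aside and each list compared with the bases of the same genes. Inside internal exons the summits found were 0.710 of those the bases gave in the control list (30 summits, 0.4999 to 1.01), 0.739 with shRNA5 (221 summits, 0.649 to 0.841) and 0.707 with shRNA7 (287 summits, 0.631 to 0.793). In the doxycycline arm the same ratio was 1.05 without the drug (813 summits, 0.978 to 1.12) and 1.05 with it (615 summits, 0.972 to 1.13). The values of the 3 hairpin lists lay close together, though that of the control list rests on few summits and its interval took in 1.

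Over the bases from 100 bp to 2 kb from an internal exon the ratio differed between its sides in the lists of both RECQL5 hairpins. Beyond 5 kb the sides lay close, at 1.11 before and 1.07 after with shRNA5, and 1.06 and 1.08 with shRNA7. From 250 to 500 bp before the exon the ratio was 1.18 with shRNA5 (1.07 to 1.30) and 1.22 with shRNA7 (1.13 to 1.32), and from 250 to 500 bp after it 0.748 (0.660 to 0.846) and 0.789 (0.714 to 0.872). In the first 100 bp after the exon it was 0.713 with shRNA5, 0.639 with shRNA7 (0.549 to 0.744) and 0.596 in the control list (0.362 to 0.976). In the last 100 bp before it the ratio was 0.766 with shRNA5 (0.651 to 0.901), close to the value after the exon, and 1.01 with shRNA7 (0.896 to 1.14). In the control list the values before the exon, from 0.997 to 1.17, all had intervals that took in 1. With doxycycline the ratio was highest at 100 to 250 bp before the exon, 1.20 (1.10 to 1.30), and lowest at 250 to 500 bp after it, 0.842 (0.775 to 0.914); without the drug it was 1.04 and 0.919 at the same places. In 300 bp windows the median A and T content was 53% around positions of deep internal exons and 58.3% around intron positions, whether or not they held a peak, and the part of composition in this pattern was not tested.

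**Figure D3:**
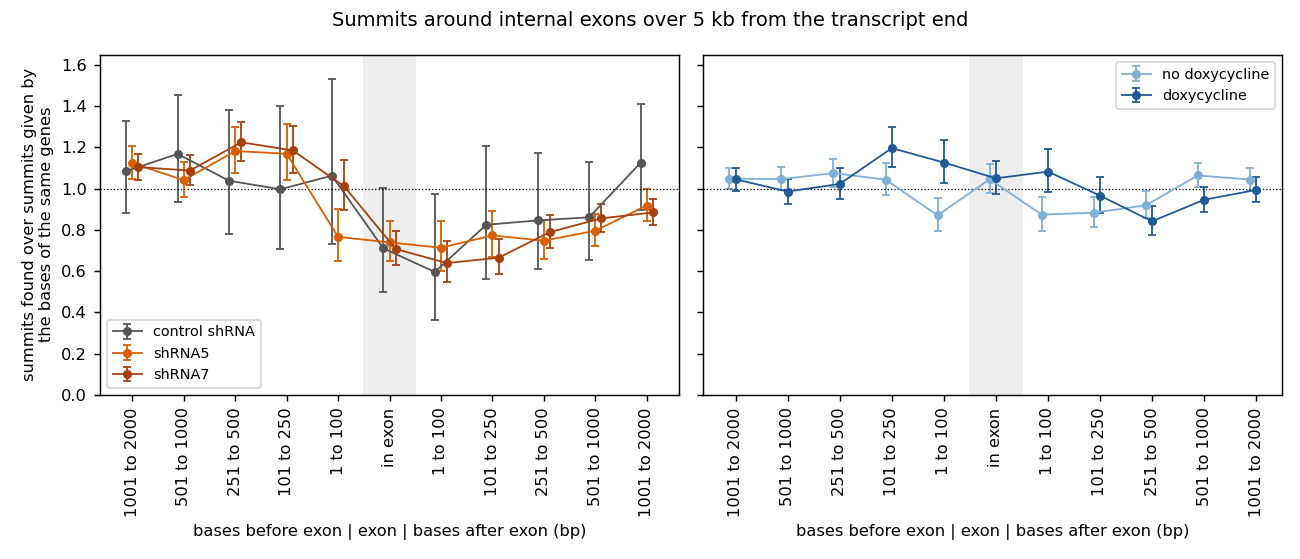
Ratio of summits found to summits given by the bases of the same genes, inside internal exons over 5 kb from the transcript end and in bins of intron before and after them (bp), for the 3 hairpin lists (left) and the 2 doxycycline-arm lists (right), with 95% intervals. In the left panel shRNA5 and shRNA7 lie between 1.17 and 1.22 from 100 to 500 bp before the exon and between 0.639 and 0.789 from the exon to 500 bp after it, with 0.766 and 1.01 in the last 100 bp before it; in the right panel both lists lie at 1.05 inside the exon.

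Internal exons over 1 kb held more of the summits than of the bases in the hairpin arm. They made up 9.75% of internal exon bases and held 48 of 284 internal-exon summits with shRNA5 (16.9%), 58 of 345 with shRNA7 (16.8%) and 9 of 52 in the control list (17.3%), against 96 of 1144 without doxycycline (8.39%) and 62 of 814 with it (7.62%). The density on them was 2.14 times that of all deep introns with shRNA5 (1.61 to 2.84) and 1.70 times with shRNA7 (1.31 to 2.20), while on exons of 150 to 300 bp it was 0.835 (0.657 to 1.06) and 0.843 (0.695 to 1.02), and on exons of up to 150 bp 1.43 (1.21 to 1.68) and 0.917 (0.779 to 1.08). Without doxycycline the ratio was 2.15 up to 150 bp, 2.05 from 150 to 300 bp and 1.79 over 1 kb, and with it 2.14, 1.95 and 1.52. These ratios were not held to the same genes or to distance from the end. Against the same genes over 5 kb from the end, internal exons stood at 1.05 in both doxycycline-arm lists. With shRNA5 and shRNA7 they stood at 0.739 and 0.707. No such comparison was made by exon length.

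RIF1, a gene of DNA double-strand break repair and replication timing, had the internal coding exon, exon 30 of 36 and 3237 bp long, that held a summit in every list, and it was picked out after its values were seen. The peaks on RIF1 exon 30 held 96 tags in the control list, 256 with shRNA5, 395 with shRNA7 and 18 without doxycycline, and 3 separate peaks of 54, 23 and 58 tags with it. RIF1 had 7 exon peaks with doxycycline against 4 without, 6 and 2 of them on internal exons. CASP8AP2, which encodes a factor needed for histone gene expression, went from 2 exon peaks without doxycycline to 6 with it, all on coding internal exons and 5 of the 6 on its 2246 bp and 3130 bp exons. In SPEN, a transcriptional repressor gene, the list with doxycycline had 7 exon peaks and the list without it 1, but that single peak was 11206 bp long with 366 tags, while the 7 were 504 to 4032 bp long and held 428 tags together.

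The lists of both RECQL5 hairpins held more exon peaks than the control list, and the list with doxycycline held fewer than the one without. The fold in number of exon peaks was 3.70 for shRNA5 over control (3.31 to 4.13) and 4.47 for shRNA7 over control (4.01 to 4.98), and 0.755 for doxycycline over none (0.716 to 0.796). For intron peaks the fold was 7.86 (7.39 to 8.37) and 12 (11.3 to 12.7) with the hairpins, above that of exon peaks, and 0.760 (0.745 to 0.776) with doxycycline, close to it. For last-exon peaks it was 3.47 and 4.18, and for internal-exon peaks 5.46 (4.07 to 7.33) and 6.63 (4.96 to 8.87), while with doxycycline the values were 0.777 and 0.712. The fold for all peaks was 4.48, 6.08 and 0.720.

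These folds rest on the number of peaks called. When every list was shortened to its strongest peaks, as many as the control list holds, the folds were 0.882 for shRNA5, 1.16 for shRNA7 and 1.52 for doxycycline, so that the first and the last turned round. In those lists the exon share of deep peaks was 26.4% in the control, 26.7% with shRNA5 and 30.9% with shRNA7, so the folds of intron peaks were no longer above those of exon peaks. With a fold enrichment of at least 10 the folds were 0.599, 1.38 and 0.286. Tags in all called peaks summed to 842310 in the control list, 3778665 with shRNA5, 6698771 with shRNA7, 1449163 without doxycycline and 1539844 with it, of which exon peaks took 8.10%, 7.47%, 7.35%, 5.15% and 6.73%. The study's methods describe the libraries set against each other as alike in number of reads, but the depth of each was not used here and its part in the folds was not tested.

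Gene by gene, exon peaks were scarce. Of the 13815 genes of 10 to 300 kb, 2.61% had an exon peak in the control list, 9.07% with shRNA5, 11.1% with shRNA7, 15.4% without doxycycline and 11.6% with it, and 3720 had 1 in any list. From control to shRNA5 7.75% of genes went from no exon peak to some and 1.29% from some to none, and from control to shRNA7 10.1% and 1.58%. From no doxycycline to doxycycline the shares were 4.10% and 7.95%. Only 71 genes had an exon peak in all 5 lists, 106 in the 3 hairpin lists and 1033 in both doxycycline-arm lists.

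Among the 3 genes with most exon peaks in each list, only SPEN was shared between the arms. It had 3 exon peaks in the control list, 0 with shRNA5 and shRNA7, 1 without doxycycline and 7 with it. SMAD2, a transducer of TGF-beta signals, had 5 exon peaks with shRNA5 and 5 with shRNA7, all on its last exon, and none in the other 3 lists. PIAS2 (a SUMO ligase) had 1 and 4, and USP15 (a deubiquitinase) had 1 and 4, with none in the control or doxycycline-arm lists, which makes these 3 genes the ones with the largest gain in number from control to shRNA7. SCO1 (a copper chaperone of cytochrome c oxidase) and the zinc finger gene ZNF431 had 5 exon peaks each with shRNA5, and 2 and 1 with shRNA7. In the other direction SMC1A (a cohesin subunit) and MSH6 (a mismatch repair gene) had 3 exon peaks each in the control list, 1 each with shRNA5 and none with shRNA7, but the tags in them went from 742 to 1661 on SMC1A and from 441 to 268 on MSH6 between the control and shRNA5 lists. In each doxycycline-arm list SMC1A had 6 exon peaks and MSH6 had 2. Genes picked by number of exon peaks had much exon sequence to hold them. Those named here and in the next paragraph had from 6349 bp (CCNT1) to 34038 bp (SMAD2) of deep exon. USP15, ZNF431 and PIAS2 had 14643, 13654 and 11057 bp, against a median of 2742 bp over all genes. The part of this length in the counts was not tested.

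In the doxycycline arm USP9X, another deubiquitinase gene, had 10 exon peaks without the drug and 7 with it, 7 and 4 of them on internal exons, beside 64 and 61 intron peaks, while the tags in its exon peaks went from 177 to 336. SRCAP (a chromatin remodeller) went from 8 peaks with 227 tags to 4 with 209, and IGF2BP1 (an RNA-binding protein gene) from 8 with 133 to 3 with 84. The largest losses in number with doxycycline were those of NR2C2 (a nuclear receptor), from 7 to 1, SETD1B (a histone H3 lysine methyltransferase), from 7 to 1, and NBPF20, from 6 to 0. NBPF20 belongs to a family of near-identical copies, so where its reads map is uncertain, and the single NR2C2 peak with doxycycline held 373 tags against 128 in the 7 peaks without. CCNT1, the cyclin of the elongation kinase P-TEFb, went from 1 exon peak to 5, holding 128 and 235 tags.

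The largest exon peaks were on last exons in 13 of the 15 cases looked at, the 3 with most tags in each list. Last exons held from 64.8% (no doxycycline) to 86.3% (control) of all members. In the control list they were on HNRNPU, an RNA-binding protein gene (3396 tags over 33181 bp), on ENSG00000285976 (1308 tags) and on BAG6, a chaperone gene (1121 tags). With shRNA5 they were on SERBP1, EIF5 and RBM39, with 2581, 2185 and 2091 tags, and with shRNA7 on KPNB1, MAP3K12 and TXLNG, with 6024, 6014 and 4738 tags. Without doxycycline they were on GATC, DGCR8 and FASN (fatty acid synthase), with 576, 564 and 508 tags, and with it on POLR2A, UBA2 and TXLNG, with 1449, 1118 and 913. The POLR2A peak, on the gene of the largest RNAPII subunit, had its summit in exon 4 of 30 but covered 21877 bp up to and past the gene's end. Of these 15 peaks 12 touched the 500 bp around a protein-coding TSS and all 15 passed the end of their gene, and 11 covered part of another protein-coding gene, as the HNRNPU peak did COX20 and the TXLNG peaks RBBP7. Of all exon peaks, 2.40% (doxycycline) to 10.25% (control) touched such a window. The gene end was passed by 13.3% (no doxycycline) to 54.75% (control). Peaks picked by tags were also wide, from 8032 to 47398 bp, and the part of width in these counts was not tested.

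Exons that held a summit in every list numbered 63, and 3715 of the exons hit were hit in 1 list only. The 6 whose lowest rank by tags over the lists was highest were all untranslated last exons, in GATC (a subunit of the mitochondrial glutamyl-tRNA amidotransferase), SERBP1 (an mRNA-binding protein), KPNB1 (importin beta), DGCR8 (the RNA-binding partner of Drosha), CTC1 (a telomere maintenance gene) and ENSG00000285976, whose last exon lies over PTP4A1 on the same strand, so the genes cannot be told apart. On GATC the single peak held 806 tags in the control list, 1568 with shRNA5, 2941 with shRNA7, 576 without doxycycline and 778 with it. Their lengths were 11492, 14681, 22496, 10504 and 11539 bp, and all 5 also covered SRSF9, which ends on the other strand, and ENSG00000111780 on the same strand. The shRNA5 and shRNA7 peaks took in part of DYNLL1 as well, which the other peaks did not. On DGCR8 the peak held 503, 2086, 3992, 564 and 860 tags in the same order, over 7256, 24242, 37523, 8032 and 10950 bp, and TRMT2A on the other strand lay under each of them. The shRNA5 and shRNA7 peaks also took in parts of RANBP1 and ZDHHC8, so their tags cover genes that the other peaks do not.

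On CTC1 the peak lay inside the last exon in 4 of the 5 lists, all but shRNA7. The CTC1 peak held 399 tags in the control list, 573 with shRNA5, 985 with shRNA7, 245 without doxycycline and 298 with it, over 2142, 2558, 8171, 1715 and 1885 bp, and no other protein-coding gene lay under it. Its summits lay between 1983 and 2308 bp from the end in all 5 lists, in a last exon of 3505 bp. On KPNB1 the lists without and with doxycycline had peaks of 3426 bp (116 tags) and 3045 bp (145 tags), and a second peak of 973 bp (24 tags) was called without the drug. The control and shRNA5 peaks on KPNB1 held 567 and 1244 tags over 8551 and 10379 bp, while the shRNA7 peak ran over the whole gene with 6024 tags over 45466 bp. On SERBP1, whose last exon has 5454 bp, the peaks were 11392, 25688 and 15041 bp long in the hairpin lists, 1847 and 3060 bp without doxycycline and 11023 bp with it. The hairpin lists put the summit between 696 and 823 bp from the end, and the list with doxycycline 4144 bp from it.

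**Figure D4:**
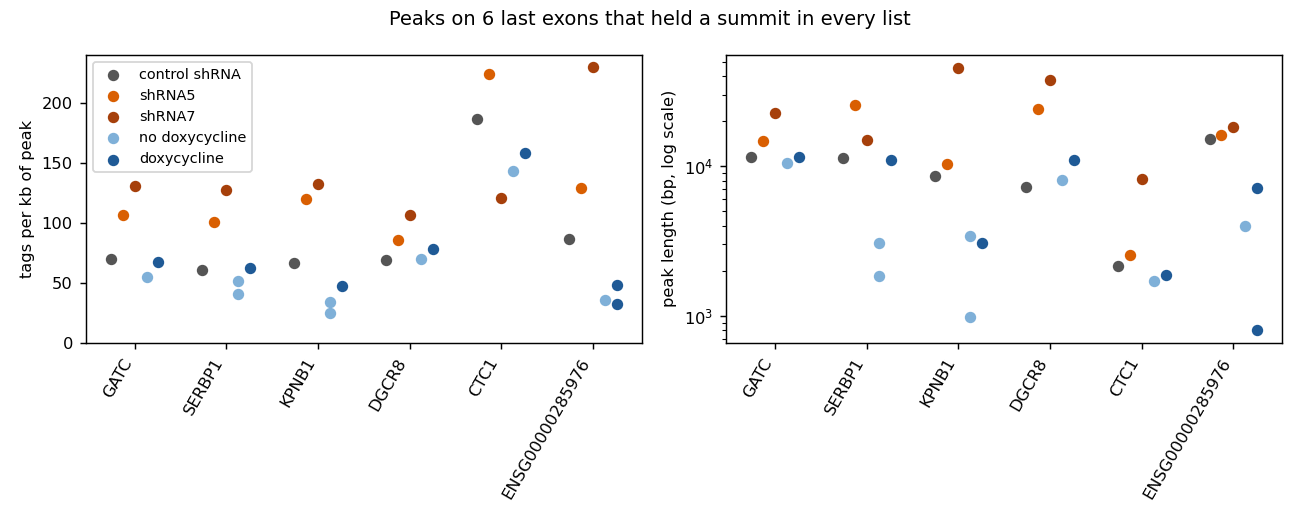
Tags per kilobase of peak (left) and peak length in bp on a log scale (right) for every peak on 6 last exons that held a summit in all 5 lists, 1 point for each peak and colours for the lists. On 4 of the 6 genes the shRNA7 peak is the longest of the 5 lists and the densest in tags, KPNB1 at 45466 bp among them; on CTC1 it is the longest at 8171 bp but the least dense, and on SERBP1 the shRNA5 peak is the longest.

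By a 1 bp overlap, last-exon peaks were found in the paired list more often than internal-exon or intron peaks in all 6 comparisons. The intervals of last and internal exons overlapped in some. Last-exon peaks also had the longest median length in every list, and the part of length was not tested. Where 50% of both peaks had to be shared, intron peaks lay higher in control by shRNA5 (33.7% against 30.7%) and control by shRNA7 (9.25% against 7.54%). In the other comparisons last-exon peaks stayed highest. Of the control list's last-exon peaks, 99.1% were overlapped by an shRNA5 peak by at least 1 bp and 88.1% by an shRNA7 peak, against 86.5% and 71.2% of internal-exon peaks and 93.8% and 75.2% of intron peaks. For all exon peaks the shares were 97.5% (95.5 to 98.6%) and 86.0% (82.3 to 89.1%). Of exon peaks with shRNA5, 87.8% were overlapped by an shRNA7 peak, and 50.8% the other way round. Of exon peaks with doxycycline, 55.9% (53.9 to 57.9%) were overlapped by a peak called without it, and 46.1% (44.3 to 47.8%) the other way round, against 43.6% and 35.5% of intron peaks.

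A summit in the same internal exon was rarely found again. In 4 of 52 internal-exon peaks of the control list (7.69%) an shRNA5 summit fell in the same exon, and so did it in 32 of 284 shRNA5 peaks (11.3%) for shRNA7 and in 101 of 814 peaks with doxycycline (12.4%) for the list without. On last exons the shares were 53.6%, 57.1% and 65.1%. The median internal exon was 123 bp long and the median last exon 1450 bp, and the part of exon length in this difference was not tested.

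**Figure D5:**
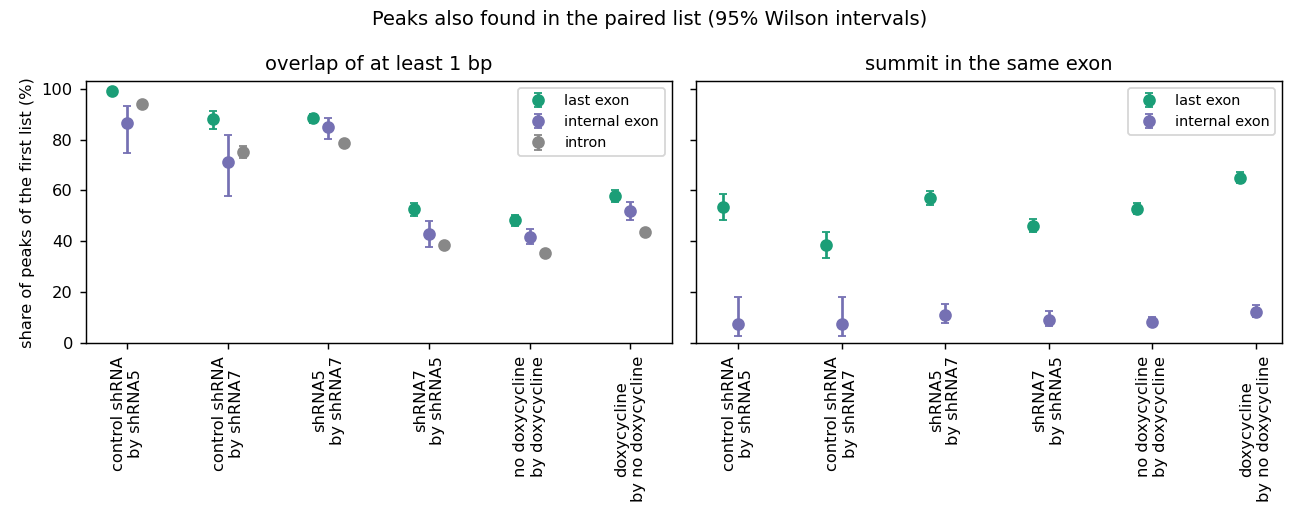
Share in percent of the peaks of the first list that are also found in the second, by an overlap of at least 1 bp (left) or by a summit in the same exon (right), for last exons, internal exons and introns, with 95% Wilson intervals. On the right, last exons lie between 38.6% and 65.1% and internal exons between 7.69% and 12.4%.

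Genes with an exon peak were mostly genes with a peak at their own start. A peak lay at the TSS in 53.6% of genes with an exon peak in the control list, 80.8% with shRNA5, 86.3% with shRNA7, 90.2% without doxycycline and 90.5% with it, against 18.4%, 49.1%, 58.4%, 63.3% and 54.0% of all 13815 genes. Peaks in introns lay in such genes more often still. Counted by peak, the shares were 55%, 81.9%, 87.7%, 92.5% and 92.5% for exon peaks. For intron peaks they were 69.5%, 88.8%, 93.5%, 95.7% and 95.97%. Some exon peaks, from 2.40% with doxycycline to 10.25% in the control list, themselves touched the 500 bp around a protein-coding TSS. The part of these was not tested. A second feature was the neighbour. The end of a gene on the other strand lay within 5000 bp of the gene's end in 44.7%, 32.7%, 29.4%, 36% and 35.6% of genes with an exon peak, against 20.5% of all genes. Among genes with an exon peak and no deep intron peak, numbering 241, 486, 526, 413 and 402, the share was higher still, from 40.2% without doxycycline to 53.1% in the control list. ChIP-seq reads carry no strand of transcription, so for such peaks RNAPII on the 2 genes cannot be told apart.

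Internal-exon summits often lay by a start of another kind. A TSS of a transcript not counted as protein-coding lay within 500 bp of 42.3% of internal-exon summits in the control list (29.9 to 55.8%), 22.9% with shRNA5, 22.9% with shRNA7, 27.4% without doxycycline and 27.1% with it, against 12.4%, 9.13%, 7.62%, 9.85% and 9.63% of intron summits. Since such transcripts are often annotated with exons in common with the coding transcript, the comparison describes the annotation as well as the peaks. Last-exon summits had such a start nearby in 3.88% to 6.02%.

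The A and T content of the 2 kb around exon summits had a median of 55.4% in the control list (54.5 to 57.2%), 58.7% with shRNA5 (58.2 to 59.2%), 59.6% with shRNA7 (59.3 to 59.95%), 53.3% without doxycycline (52.7 to 53.8%) and 56.8% with it (56.4 to 57.2%). Deep intron summits ran in the same order, at 56.5%, 59%, 60.2%, 55.9% and 57.7%. The bases of deep exons as a whole stood at 57.5%, which put the lists of both RECQL5 hairpins above them and the other 3 below, but shRNA5 went below, to 57.3%, in lists of equal length and to 55.2% at a fold enrichment of at least 10. For last exons alone the shRNA5 median was 58.8% (58.1 to 59.3%), against 58.4% for all deep last-exon bases. For internal exons alone the medians were 55.8%, 58.3%, 59.3%, 50.5% and 55.6%, against 55.7% for all deep internal exon bases.

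Groups of genes, formed by symbol, were set beside the share of all genes with an exon peak given above. Zinc finger genes, which encode mostly DNA-binding regulators, had an exon peak in 21 of 517 in the control list (4.06%, against 2.61% of all genes), 86 with shRNA5 (16.6%, 13.7 to 20.1%, against 9.07%), 113 with shRNA7 (21.9%, 18.5 to 25.6%, against 11.1%), 84 without doxycycline (16.2%, against 15.4%) and 72 with it (13.9%, against 11.6%). Their median deep exon sequence was 3356 bp and that of all genes 2742 bp, and the part of this length was not tested. Genes of pre-mRNA splicing proteins had an exon peak in 4 of 41 in the control list, 12 and 10 with shRNA5 and shRNA7, and 18 and 22 without and with doxycycline (43.9% and 53.7%). Translation initiation factor genes had 8, 13, 11, 20 and 20 of 43, and hnRNP genes, of RNA-binding proteins on nascent RNA, had 5, 4, 4, 6 and 5 of 16.

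Genes of RNA polymerase subunits and elongation factors had an exon peak in 6, 8, 9, 14 and 12 of 40 across the lists in the same order, or 15%, 20%, 22.5%, 35% and 30%, against 2.61%, 9.07%, 11.1%, 15.4% and 11.6% of all genes. DNA replication and repair genes had 3, 14, 8, 21 and 21 of 52, and nuclear pore genes 1, 3, 9, 12 and 9 of 23. With shRNA5 some groups lay near the 9.07% of all genes. Chaperone genes had 4, 6, 8, 14 and 13 of 59 (10.2% with shRNA5), and kinesin and dynein genes, of motor proteins, 2, 4, 6, 12 and 14 of 44 (9.09% with shRNA5). Collagen genes, of secreted matrix proteins, had 0, 2, 2, 2 and 0 of 37, the lowest share of the 10 groups in all 5 lists, and 0 of 37 allows a share of up to 8.11%, taking 3 counts as the limit that a count of 0 allows, or 9.41% by the Wilson interval. As a check of the cell line, a TSS peak was found for 5 of 6 genes expected in HEK293 in each list but that of shRNA7, which had 4, with NEFM lacking throughout and YWHAE with shRNA7, and for 0 of 6 genes of blood, liver, heart, red cells and squamous epithelium.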

How the data were processed

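RNAPII was immunoprecipitated by the authors with an antibody to all its forms. Reads were handled with CASAVA 1.8, aligned with Bowtie 0.12.7 to hg19 (GRCh37) and called into peaks with MACS 1.4.2 for each library separately, per the submitters' processing notes. The deposited lists give each peak a tag count that the authors did not normalise, a significance score (the −log10 p-value times 10), a fold enrichment ratio over IgG and an FDR in percent. Library depth was not used, nor were the 4 IgG libraries beyond the authors' calls.

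Summits were assigned with GENCODE 44 lifted to GRCh37 (Python 3.11.15, numpy 2.4.6, pandas 2.3.3), and a base in an exon of any eligible gene counted as exon. Expected exon counts summed, over deep peaks, the exon fraction of the same gene's deep bases, overall or in 7 bins of distance to the transcript end, and intervals treat them as fixed. Fold intervals came from Wilson intervals turned into odds, and median intervals from order statistics (both 95%). Named were the 3 exon peaks with most tags per list, the 6 exons hit in all lists with the highest ranks, the 3 genes per list with most exon peaks, the 3 with the largest gains (shRNA7, doxycycline) and losses (doxycycline), and the 2 strongest internal coding exons per list. Classification, overlap and expected counts were tested on simulated data. The members, gene groups and markers were chosen with earlier results of these data known.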

Additional observations from a re-analysis of the deposited data

How the results depend on the processing

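Of 336 values recomputed under 14 alternatives, 198 stayed within the counting interval of the value given, 135 moved beyond it and 3 turned round. No library could be left out without losing its group, and sequencing depth was not tested. No paired analysis was possible because the labels hold a single RNAPII library of every kind. Leaving out chromosome Y, a distance of 1 kb from any TSS, and gene length by the transcript moved nothing. Values below run in the order control shRNA, shRNA5, shRNA7, none, doxycycline, or for overlap control by shRNA5, control by shRNA7, shRNA5 by shRNA7, shRNA7 by shRNA5, none by doxycycline, doxycycline by none, and the cause of the moves was not tested.

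Folds (shRNA5, shRNA7, doxycycline) were 4.18, 5.69 and 0.933 at a score of at least 100, 0.599 (turned round), 1.38 and 0.286 at a fold enrichment of at least 10, and 0.882 (turned round), 1.16 and 1.52 (turned round) in lists of equal length. An FDR of at most 5% gave 3.13 for shRNA7, and merging peaks under 1 kb apart gave 3.12 and 3.74 for the hairpins.

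Exon shares of deep peaks were 34.0%, 18.2%, 14.9%, 18.2% and 16.8% at a score of at least 100, 29.6%, 27.5%, 27.3%, 13.9% and 15.6% at a fold enrichment of at least 10, and 31.8%, 17.5%, 14.1%, 14.9% and 14.3% over 10 kb past the TSS. In lists of equal length they were 26.7%, 30.9%, 26.7% and 22.6% from shRNA5 on, and with the exons of any protein-coding transcript 16.4%, 13.4%, 15.2% and 15%. The FDR limit gave 14.3% with shRNA7, merging gave 11.8% without doxycycline, and midpoints gave 15.5% and 12.7% with shRNA5 and shRNA7.

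Overlap was 67.9%, 77.0%, 80.2%, 34.3%, 27.5% and 71.4% at a fold enrichment of at least 10, 82.0%, 70.8%, 81.6%, 56.7%, 77.8% and 52.8% in lists of equal length, 29.8%, 6.75%, 34.1%, 28.1%, 16.8% and 22.5% where 50% of both peaks had to be shared, and 47.3%, 34.5%, 48.3%, 39.0%, 37.3% and 47.7% for a summit in the same exon. A score of at least 100 gave 80.8% for control by shRNA7 and 58.8% for none by doxycycline, the FDR limit 82.7% and 63.8% between the RECQL5 hairpins, merging 56.5% for shRNA7 by shRNA5, 40.3% for none by doxycycline and 52.7% the other way, midpoints 53.8% for shRNA7 by shRNA5, and the 10 kb start 53.9% for doxycycline by none.

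A and T content was 54.2%, 55.2%, 52.6% and 54.1% (control, shRNA5, none, doxycycline) at a fold enrichment of at least 10, 57.3%, 58.4%, 50.9% and 55.1% from shRNA5 on in lists of equal length, and 60.7%, 61.0% and 52.3% (shRNA5, shRNA7, none) in 300 bp windows. With shRNA7 and without doxycycline it was 59.0% and 52.0% at a score of at least 100, and 59.0% and 54.2% after merging. The FDR limit gave 59.1% with shRNA7, and the 10 kb start 53.8% without doxycycline.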
